A study of Mus musculus with 6 samples.

Results

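Testes of AKR/N mice were set against testes of C57BL/6 and MRL/MpJ mice, as 2 arrays against the other 4 of the 6 in the series. A gene belongs to the set described here when both AKR/N arrays lay above all 4 others, or below all 4, on log2(intensity + 16). That held for 7188 of the 29692 probe sets tested (24.2%) and for 3807 of 14477 genes (26.3%), each gene being read from the brightest of its probe sets that passed the filter. All mice were 8 weeks old, with 2 mice and 2 arrays per strain, and the labels give no treatment, transgene or induced mutation; the MRL/MpJ mice are those labelled +/+. Total RNA was taken from the testis and measured on oligonucleotide arrays in arbitrary intensity units, where a probe set is a group of short probes against 1 transcript. One question of the series is which genes testes of different strains express at different levels.

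AKR is an inbred strain long used in leukaemia research, because its mice carry active endogenous murine leukaemia viruses and develop thymic lymphoma early in life. In the testis, germ cells divide, pass through meiosis and become sperm inside tubules lined by Sertoli cells, which feed and hold them, while Leydig cells between the tubules make testosterone. Nearly every gene that spermatogenesis needs is read in this tissue, together with many transcripts of no known function, so inbred strains can differ in transcripts of all these kinds. In whole testis, fewer cells of a type and less RNA per cell cannot be told apart.

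Among the genes that met the stricter rule given below, 4 were close to the floor of the array on 1 side of the comparison and at 100 units or more on the other, and their promoters are shown because these are the nearest to an on or off difference. Galntl6, of the family of enzymes that start mucin-type O-glycosylation, and Dapp1, an adaptor protein of B cell signalling, were near the floor in AKR/N. Cd3d, a chain of the CD3 complex of the T cell receptor, and 9430014N10Rik, a transcript known by its clone name, were near the floor in both other strains. The 250 bases before each start come from RefSeq on GRCm38.p6, a C57BL/6J sequence, so they do not show what AKR/N carries there. The stretches are chr8:58911628-58911877 (minus strand), chr3:137981550-137981799 (minus strand), chr9:44981536-44981785 (plus strand) and chr15:93927112-93927361 (minus strand). Capitals mark matches on either strand. The letters searched for the TATA box were TATAAA. The CCAAT box was searched by its name's own letters. The CRE half-site was searched as TGACG, and the GC box was searched as GGGCGG. No match overlapped another here.
Galntl6: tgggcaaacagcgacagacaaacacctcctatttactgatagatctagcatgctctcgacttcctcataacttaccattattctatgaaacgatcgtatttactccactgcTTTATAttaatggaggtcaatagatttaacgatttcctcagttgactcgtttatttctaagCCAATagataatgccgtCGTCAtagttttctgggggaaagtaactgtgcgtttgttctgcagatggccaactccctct
Dapp1: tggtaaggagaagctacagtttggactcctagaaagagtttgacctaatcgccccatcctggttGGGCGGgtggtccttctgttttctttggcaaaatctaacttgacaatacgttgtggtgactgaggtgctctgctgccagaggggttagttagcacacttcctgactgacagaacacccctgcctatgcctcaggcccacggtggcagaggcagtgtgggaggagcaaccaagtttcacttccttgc
Cd3d: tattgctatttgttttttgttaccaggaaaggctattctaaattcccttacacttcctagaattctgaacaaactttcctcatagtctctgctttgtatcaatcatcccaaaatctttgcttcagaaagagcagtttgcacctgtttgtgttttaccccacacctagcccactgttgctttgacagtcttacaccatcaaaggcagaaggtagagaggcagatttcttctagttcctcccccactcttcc
9430014N10Rik: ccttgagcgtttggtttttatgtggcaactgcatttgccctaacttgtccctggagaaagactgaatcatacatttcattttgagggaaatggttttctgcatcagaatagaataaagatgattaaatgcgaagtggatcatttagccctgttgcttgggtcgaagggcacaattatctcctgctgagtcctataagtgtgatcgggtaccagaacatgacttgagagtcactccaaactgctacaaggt
The Galntl6 promoter held 1 match each to the TATA box, the CCAAT box and the CRE half-site, the binding core of the testis activator CREM and its relatives, and that of Dapp1 held 1 GC box. Those of Cd3d and 9430014N10Rik held none of these letters. Of 27025 promoters in the table, 13% held a TATA box, 34.5% a CCAAT box, 17.9% a CRE half-site and 32.9% a GC box by the same search, and a match is no more than a description of these letters. The table held a promoter for 340 of the 428 genes of the stricter rule.

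The arrays of a strain resembled each other more than those of different strains. Within a strain the log2 values of the probe sets correlated at 0.9802 to 0.9853, and between strains at 0.9597 to 0.9743, as a description across features that are not independent. Each array had the same trimmed mean of 125.001 units, medians lay between 28.0 and 30.7 units, and the 40th percentile, used as the floor, lay between 17.8 and 20.8 units. Differences below are AKR/N minus the mean of the other 2 strains on log2(intensity + 16), which understates changes of dim genes. They are given with the standard error (SE) of the fit and p-values of limma adjusted over all 29692 probe sets, and a gene is called at an adjusted p under 0.05. The 2 arrays per strain limit the precision, and the p-values measure only the spread between these mice.

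The mean difference called 2484 probe sets (8.37%) and 1477 genes (10.2%), of which 822 genes were higher in AKR/N (5.68%) and 655 lower (4.52%). Both AKR/N arrays lay above all others for 1955 genes (13.5%) and below all others for 1852 (12.8%). A difference from the mean of 2 strains can come from 1 of them, so a stricter rule was used for the genes named first: separated arrays, a call against the mean, and a call in the same direction against C57BL/6 alone and against MRL/MpJ alone. Those pairwise comparisons, which share the AKR/N arrays, called 2960 probe sets (9.97%) and 2052 probe sets (6.91%). The stricter rule kept 722 probe sets (2.43%) and 428 genes (2.96%), with 203 genes higher (1.40%) and 225 lower (1.55%) in AKR/N. Of these, 40 were higher (0.276%) and 53 lower (0.366%) by at least 2-fold, and 10 and 12 by at least 4-fold. The median size was 0.59 among the higher genes and -0.61 among the lower ones, which describes the selection and is no test. C57BL/6 and MRL/MpJ were not called apart in 174 of the higher and 203 of the lower genes. Closest to the edge of the rule was Ndufa12, a subunit of respiratory complex I, at 4154 and 4451 units in AKR/N against 3537 and 3794 in C57BL/6 and 1977 and 2073 in MRL/MpJ. Gsta4, a glutathione transferase at 850.0 and 858 units in AKR/N, lay outside it, because MRL/MpJ read 876 and 827 and only C57BL/6, at 454 and 455, was lower.

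Both counts moved with the arrays used. The 2484 probe sets became 909 without AKR/N replicate 1, 769 without AKR/N replicate 2 and 1583 without MRL/MpJ replicate 2. Leaving out AKR/N replicate 1 or 2 left 75 or 65 higher genes and 125 or 97 lower ones under the stricter rule. Without C57BL/6 replicate 2 there were 129 and 148, without MRL/MpJ replicate 1 there were 118 and 116, and without MRL/MpJ replicate 2 there were 104 and 112.

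**Figure D1:**
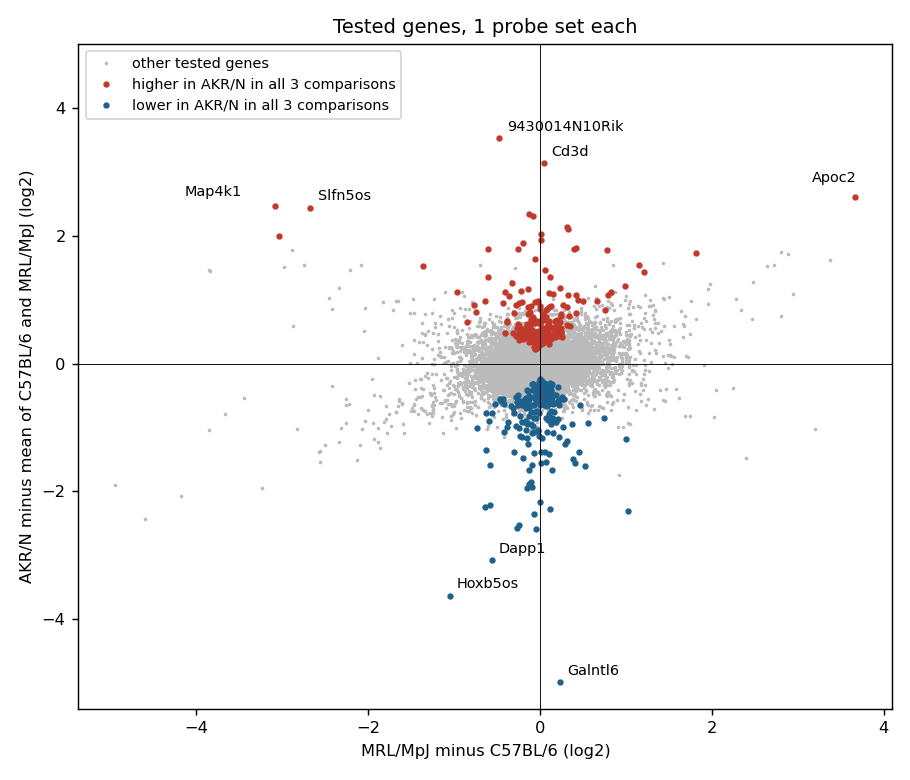
Difference of AKR/N from the mean of the other strains (vertical, log2) against the difference of MRL/MpJ from C57BL/6 (horizontal, log2), 1 point per tested gene. Red points are the 203 genes higher in AKR/N in all 3 comparisons and blue points the 225 lower ones; most lie near 0 on the horizontal axis, while Apoc2 (3.67), Slfn5os (-2.67) and Map4k1 (-3.08) lie far from it.

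Galntl6 showed the largest difference of all genes named here. Its intensity was 2.93 and 1.56 units on the AKR/N arrays, 530 and 503 in C57BL/6 and 729 and 505 in MRL/MpJ. Both AKR/N arrays were below the floor and the other 4 were bright, with no overlap (difference -4.98 ± 0.134 SE, limma adjusted p = 2.15e-08). A dim second probe set of the gene read 0.443 and 2.21 units in AKR/N and 5.06 to 30.0 elsewhere, in the same direction but not called (adjusted p = 0.0824). Dapp1 read 13.3 and 12.2 units in AKR/N, 274 and 281 in C57BL/6 and 181 and 184 in MRL/MpJ. The AKR/N arrays were the lowest for it, by -3.07 ± 0.105 (limma adjusted p = 9.21e-08), and its other probe set was called lower too, at -0.93 (adjusted p = 0.0437).

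Next among the falls were transcripts of the HoxB cluster, of metabolism and of nuclear import. Hoxb5os, a transcript antisense to the homeobox gene Hoxb5, read 31.3 and 15.2 units in AKR/N, 665 and 673 in C57BL/6 and 302 and 331 in MRL/MpJ (-3.63 ± 0.143). It stood below both strains, which also differed from each other by 1.05. Hoxb3, a homeobox gene that follows it in gene order among tested genes, fell by 1.07 (adjusted p = 0.00286), with 18.5 and 14.3 units in AKR/N and 47.1 to 56.9 elsewhere. Its other probe set, near the floor, gave 0.03 and was not called (adjusted p = 0.961). Csl, a relative of citrate synthase, read 112 and 129 units in AKR/N, 802 and 826 in C57BL/6 and 729 and 851 in MRL/MpJ (-2.59 ± 0.087). Kpna1, an importin alpha that carries proteins into the nucleus, read 52.7 and 50.3 units in AKR/N, 433 and 383 in C57BL/6 and 350 and 333 in MRL/MpJ (-2.53 ± 0.0911). All 4 of its other probe sets had the same sign, and 2 of them were called lower, by -1.30 and -0.40. Fyb, an adaptor protein of T cell signalling, read 31.5 and 30.9 units in AKR/N and 227 to 317 on the other arrays (-2.57 ± 0.108). Its other probe set, at -0.18, was not called (adjusted p = 0.615). Acot12, an acyl-CoA thioesterase, lay at -2.28, and Slc6a16, an orphan member of a transporter family, lay at -2.17. The 15 largest falls, among genes whose other probe sets all had the same sign where there were any, also held Odr4 (-1.94) and 7 transcripts known by a clone, model or antisense name (4933401H06Rik, 4933433G15Rik, Gm28453, Gm19589, Tnfsf13os, Gm4871 and Hoxb5os), for which the AKR/N arrays lay below the other 4.

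Of the falls that a second probe set supported by a call of its own, 8 are named. Beside Kpna1, Dapp1 and Odr4 they were Rcbtb2 (-2.21), Mrpl41, a protein of the mitochondrial ribosome (-1.66), Rgcc, a regulator of the cell cycle (-1.55), Niban1 (-1.54) and Hars, which charges the histidine tRNA (-1.39). Mrpl41 read 152 and 180.3 units in AKR/N against 561 and 608 in C57BL/6 and 563 and 507 in MRL/MpJ. Its second probe set, at 288 and 269 units against 445 to 472, fell by a smaller amount (-0.68, adjusted p = 0.000296). Niban1 was 43.7 and 52.5 units in AKR/N against 164 to 186 on the other 4 arrays, and its second probe set gave -1.39 (adjusted p = 0.000202). In each of these 8 genes at least 1 other probe set was called lower, while Rcbtb2 also had 2 dim ones near 0 (-0.02 and 0.08).

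The largest rises were a clone transcript and genes known from lymphocytes and lipoproteins. 9430014N10Rik read 252 and 248 units in AKR/N, 11.1 and 11.1 in C57BL/6 and 0.703 and 6.83 in MRL/MpJ (3.53 ± 0.18 SE, limma adjusted p = 1.61e-06). Cd3d read 113 and 173 units in AKR/N, 1.17 and 1.70 in C57BL/6 and 1.57 and 2.31 in MRL/MpJ. Its level was at the floor on all 4 other arrays and above 100 units on both AKR/N arrays (3.14 ± 0.227, adjusted p = 1.82e-05). The array has no other tested probe set for it. Cd3d and 9430014N10Rik, like Cmya5 below, passed the filter on dim signal only through the AKR/N arrays. D630024D03Rik, also below, was over the floor on MRL/MpJ replicate 1 (28.75 units) but on no further array of the other strains. It too needed its signal in AKR/N to pass. Map4k1, a kinase of lymphocyte receptor signalling, read 589 and 549 units in AKR/N, 297 and 289 in C57BL/6 and 27.1 and 14.7 in MRL/MpJ (2.46 ± 0.129). Apoc2, the cofactor of lipoprotein lipase, read 411 and 425 units in AKR/N, 0.705 and 7.86 in C57BL/6 and 247 and 230 in MRL/MpJ (2.61 ± 0.141). In these last genes AKR/N was highest, but most of the range lay between the other strains: Map4k1 was low in MRL/MpJ and Apoc2 in C57BL/6. Slfn5os (2.44) and 4930523O13Rik (2.00) were low in MRL/MpJ in the same way. Where the 4 other arrays were taken as 1 group, which adds that spread to the error, none of Apoc2, Map4k1, Slfn5os and 4930523O13Rik was called.

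Other rises separated AKR/N from both strains alike. Kcnab1, a beta subunit of voltage-gated potassium channels, read 170.0 and 166 units in AKR/N, 19.2 and 25.7 in C57BL/6 and 18.4 and 21.9 in MRL/MpJ (2.31 ± 0.151), and its other probe set was called higher as well (1.07). Galm, the mutarotase that opens galactose metabolism, read 576 and 593 units in AKR/N, 149 and 167 in C57BL/6 and 129 and 143 in MRL/MpJ (1.89 ± 0.0884). Its other probe set gave nearly the same values, 593 and 572 units against 108 to 151, for a difference of 2.04. Mthfd1l, a mitochondrial enzyme of folate metabolism, rose by 2.02. Actn2 and Cmya5, both known from the Z disc of striated muscle, rose by 1.93 and 1.80. Actn2 read 153 and 186 units in AKR/N and 28.0 to 36.6 on the other arrays, and Cmya5 56.3 and 50.6 against 1.41 to 9.33. Zmynd8, a reader of chromatin marks, rose by 2.13, and 1 of its other 3 probe sets was called higher, at 0.62. Tmem87a rose by 2.34, but was not called without AKR/N replicate 1 (adjusted p = 0.051). D630024D03Rik (2.11) and Npas1, a transcription factor known from neurons (1.81), complete the 15 largest rises chosen in the same way.

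**Figure D2:**
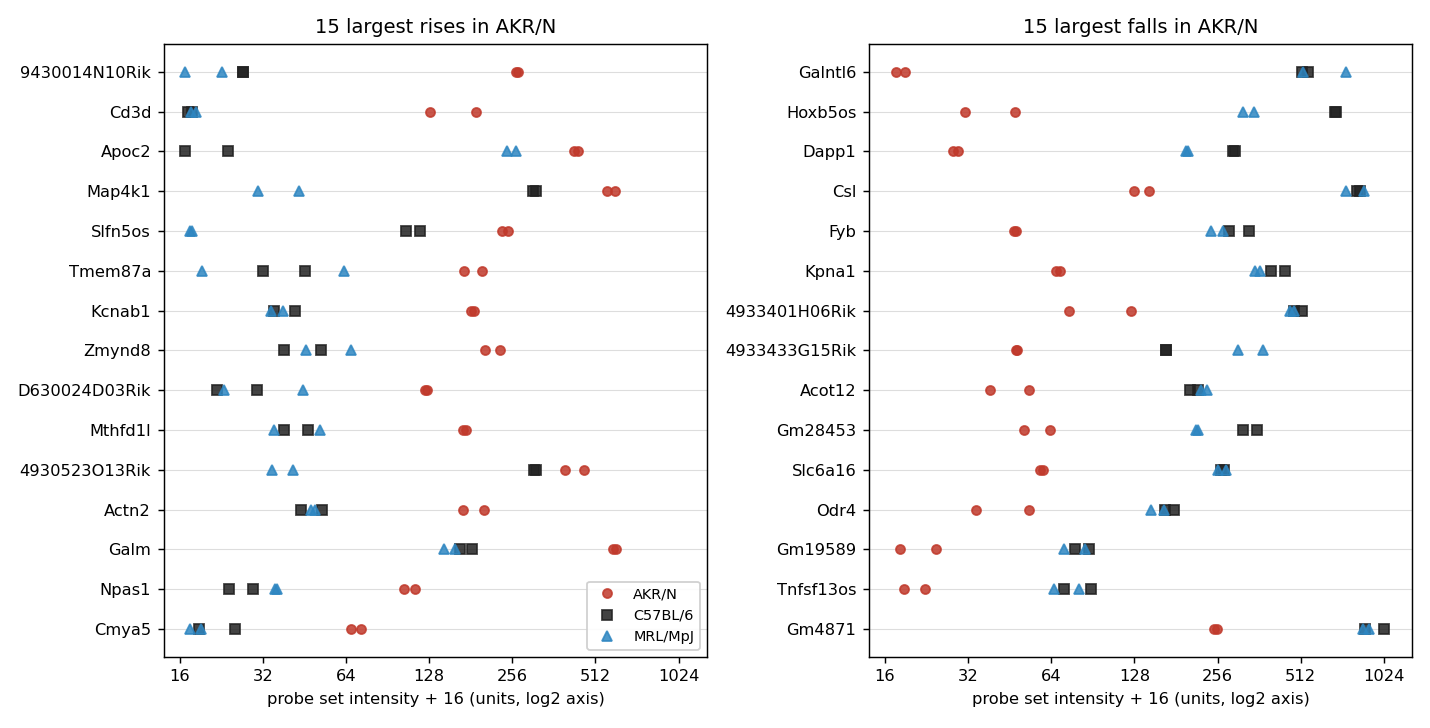
Intensity + 16 (units, log2 axis) of the 15 largest rises and 15 largest falls in AKR/N on each of the 6 arrays, 1 row per gene and 1 point per array. The red AKR/N points lie right of all others in the left panel and left of all others in the right panel; C57BL/6 and MRL/MpJ overlap or lie close in most rows but not for Apoc2, Map4k1, Slfn5os and 4930523O13Rik.

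Among rises with a second probe set called the same way were also Arg2, the mitochondrial arginase (1.73), Pvt1, a long non-coding RNA beside Myc (1.55), and Fads1, a desaturase of polyunsaturated fatty acids (1.21). Arg2 read 180.1 and 205 units in AKR/N, 18.7 and 16.2 in C57BL/6 and 92.6 and 111 in MRL/MpJ, so that the strains formed 3 levels. Its other probe set gave the same order, with 132 and 171, then 9.51 and 14.04, then 70.4 and 76.2 units. Pvt1 read 443 and 443 units in AKR/N, 92.8 and 86.2 in C57BL/6 and 208 and 228 in MRL/MpJ, and 2 of its other 3 probe sets were called higher. Fads1 read 680.3 and 809 units in AKR/N, 247 and 188 in C57BL/6 and 417 and 475 in MRL/MpJ. With the 4 other arrays as 1 group, Arg2, Pvt1 and Fads1 were not called either (limma adjusted p = 0.24, 0.103 and 0.157).

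Other probe sets of a gene are further measurements on the same arrays, not replicates. Of the 428 genes, 211 had other tested probe sets, 381 in all, and 77.4% of these had the sign of the brightest one, against 60.4% over all tested genes. All others had that sign in 138 genes, at least 1 was separated in the same way in 115, and at least 1 was called in the same direction in 80. In 32 genes none of the others had that sign. A probe set called in the opposite direction was found for 6 genes. Cep89, a centrosomal protein, was the clearest: its brightest probe set read 1312 and 1262 units in AKR/N against 390.0 to 421 elsewhere (1.63), and a second agreed in direction (1.44). The remaining probe set read 8.47 and 8.96 units in AKR/N, 200 and 190.2 in C57BL/6 and 102 and 96.0 in MRL/MpJ (-2.66, adjusted p = 7.92e-07). For Piga, an enzyme of membrane anchor synthesis, the brightest probe set gave 0.67 and the other -1.54. Rgl1 gave -0.57 and 1.58, Pds5a, a cohesin regulator, -0.57 and 0.77, Cfap43, a protein of the sperm tail, -0.51 and 0.88, and Ddias -0.42 and 0.69. For these 6 genes no direction of the gene as a whole can be given. Whether AKR/N alleles differ from the array's probes was not tested.

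**Figure D3:**
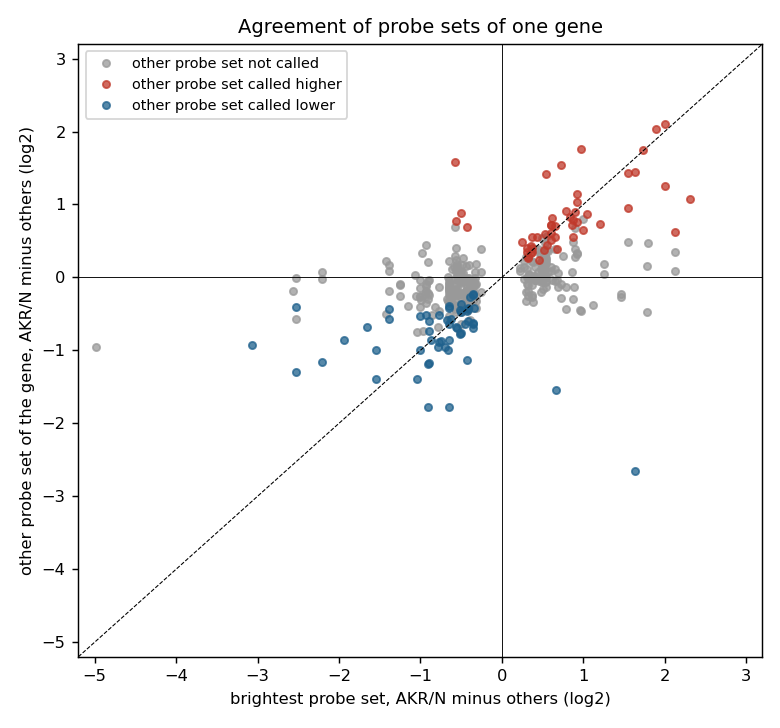
Differences of AKR/N from the mean of the other strains (log2) for the 381 other tested probe sets (vertical) of 211 genes called in all 3 comparisons, against the gene's brightest probe set (horizontal). Points near the dashed line gave the same difference by both probe sets; Cep89 stands lowest at right, at 1.63 and -2.66, and Galntl6 at far left, at -4.98 and -0.95.

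Among the cell type lists, several Sertoli cell genes were higher in AKR/N. Of 25 tested genes, 13 lay above all other arrays in AKR/N and 3 below, where 13.5% and 12.8% of all genes did. Of the 25, 5 were called higher (20%, against 5.68% of all genes) and 2 lower (8%, against 4.52%). The median difference was 0.233 beside 0.0036 over all genes. Gja1, the gap junction protein connexin 43, read 785 and 839 units in AKR/N, 548 and 472 in C57BL/6 and 571 and 521 in MRL/MpJ (0.61 ± 0.0801, adjusted p = 0.00112). All 5 of its other probe sets had the same sign and 3 of them were called. Aard rose by 0.46, Rhox5, an androgen-responsive homeobox gene of the X chromosome, by 0.49, Defb19, a defensin made by Sertoli cells, by 0.30, and Ctsl, the protease cathepsin L, by 0.265. These 5 met the stricter rule, but Defb19 and Ctsl were not called without AKR/N replicate 1 or without replicate 2, and Rhox5 was not without replicate 2. Against them went Kitl, the growth factor that Sertoli cells present to Kit on spermatogonia, at 73.2 and 63.4 units in AKR/N, 179 and 226 in C57BL/6 and 215 and 219 in MRL/MpJ (-1.42 ± 0.114, adjusted p = 3.32e-05). A second Kitl probe set, at -0.50, missed the threshold (adjusted p = 0.0518), and the other, a dim one, gave 0.22 (adjusted p = 0.734). Inhba, an activin subunit, was called lower against the mean (-1.05) but not in every pair, and was not called without AKR/N replicate 2, C57BL/6 replicate 2 or MRL/MpJ replicate 2. The defining genes Sox9 (0.31), Wt1 (0.36, adjusted p = 0.0515) and Gata4 (0.23) were not called, and Wt1 crossed the threshold after quantile normalization (adjusted p = 0.0457). Medians over the list, as deviations from each gene's mean, were 0.158 and 0.156 on the AKR/N arrays and between -0.113 and -0.0161 on the other 4. The summed intensity of the list was 20494 and 20896 units in AKR/N and 17459 to 18352 elsewhere. The list had 3 and 2 genes called higher without AKR/N replicate 1 or 2, and 1 with the other arrays as 1 group. Without the variance trend limma called 0 of them higher, with 7 at an unadjusted p under 0.05.

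Several spermatocyte genes were lower in AKR/N. Of 27 tested, 6 were lower (22.2%, against 4.52% of all genes) and 2, Syce2 and Meiob, higher (7.41%, against 5.68%). The median was -0.0985, and 4 of the lower ones met the stricter rule. The median lay between -0.0679 and -0.0318 when 1 array was left out. It was -0.0596 without AKR/N replicate 2, -0.0627 without C57BL/6 replicate 2, and -0.0554 or -0.0318 with the first or the second MRL/MpJ array left out. Limma called 1 gene lower without the variance trend, and 0 with the other arrays as 1 group, where 6 had an unadjusted p under 0.05. Sycp1, which builds the central part of the synaptonemal complex that joins paired chromosomes, read 691 and 465 units in AKR/N, 1279 and 1186 in C57BL/6 and 975 and 924 in MRL/MpJ (-0.91 ± 0.122, limma adjusted p = 0.00129). Sycp2, of the lateral part of the same complex, read 1170.1 and 864 units in AKR/N and 1487 to 1602 on the other arrays (-0.61). Syce2, also of this complex, went the other way and was called higher (0.246, limma adjusted p = 0.02). AKR/N replicate 2 was the lowest array for Sycp1 and Sycp2. Nek2, a cell division kinase (-0.32, with 2 of its other 3 probe sets of the same sign and none called), and Piwil2, a piRNA-binding protein (-0.28), were lower by less. Of 24 genes of meiotic recombination 3 were lower (12.5%) and 2 higher (8.33%), with a median of -0.0551. Spo11, which makes the breaks, read 472 and 438 units in AKR/N, 795 and 781 in C57BL/6 and 582 and 577 in MRL/MpJ (-0.56). Dmc1, the strand exchange protein of meiosis (-0.55), was separated but not called in every pair, nor without AKR/N replicate 1 or 2. In the other direction Meiob, a single-strand DNA-binding protein of meiosis, was called higher (0.46, adjusted p = 0.0104), with 241 and 244 units in AKR/N, 132 and 132 in C57BL/6 and 235 and 211 in MRL/MpJ. Nek2 was not called without AKR/N replicate 1, and the list then had 4 lower genes, against 5 without replicate 2. Mybl1, a meiotic transcription factor, was called lower against the mean at -1.47, but C57BL/6, at 56.1 and 85.7 units, was nearly as low as AKR/N, at 54.0 and 55.8, and MRL/MpJ was high at 461 and 413. Pld6, an enzyme of the piRNA pathway, fell by 0.64, with 502 and 536 units in AKR/N against 681 to 1003. Piwil2 was not called without AKR/N replicate 1 (adjusted p = 0.142) or replicate 2 (adjusted p = 0.167), nor without C57BL/6 replicate 2 (adjusted p = 0.053) or MRL/MpJ replicate 2 (adjusted p = 0.0702).

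Of all tested genes 5.68% were called higher and 4.52% lower, and the lists of later germ cells and other cell types are read beside these shares. Of 30 round spermatid genes 3 were higher (10%) and 1 lower (3.33%). The 3 higher ones, Sun5, Spaca7 and Catsper3, were not separated in AKR/N. They were called higher than MRL/MpJ but not than C57BL/6 (limma adjusted p = 0.82, 0.886 and 0.532). Of 30 elongating spermatid genes 4 were higher (13.3%) and 1 lower, and only Akap4 met the stricter rule. Akap4, a sperm tail protein encoded on the X chromosome, read 5321 and 5556 units in AKR/N and 4550 to 4830 on the other arrays (0.23), and Adam2, a sperm surface protein, fell by 0.31 on the log2 scale. Neither was called without AKR/N replicate 1 or without replicate 2. Of 36 genes of the cilium and sperm flagellum 7 were lower (19.4%) and 3 higher (8.33%). The 7 include Cfap43, for which no direction can be given. Ift57, of the transport complex that builds flagella, rose by 0.48, and its partner Ift74 fell by 0.303. Neither Ift57 nor Ift74 was called without AKR/N replicate 2. That list had 4 and 2 lower genes without AKR/N replicate 1 or 2, and 1 with the other arrays as 1 group. Without the variance trend limma called 0 lower, with 7 at an unadjusted p under 0.05. Macrophage genes had 1 higher and 1 lower of 21 (4.76% each), and spermatogonial genes 1 higher of 23 (4.35%), near the shares of all genes. Of 21 piRNA pathway genes 3 were lower (14.3%).

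Of 14 Leydig cell genes 5 were called higher (35.7%) and 3 lower (21.4%), against 5.68% and 4.52% of all genes, and only Cyp11a1 of them met the stricter rule. This enzyme, which starts steroid synthesis from cholesterol, read 985 and 1013 units in AKR/N, 610 and 648 in C57BL/6 and 546 and 658 in MRL/MpJ (0.69 ± 0.0802, adjusted p = 0.000497). Its other probe set, dim on all arrays, gave 0.0621 and was not called. Hsd17b3, which makes testosterone, was called against the mean (0.76), but AKR/N, at 492 and 520 units, was close to MRL/MpJ, at 474 and 466, and C57BL/6 was low at 178 and 181. Without AKR/N replicate 1 or 2, 3 genes of the list were higher. Without replicate 1 limma called 0 lower, with 3 at an unadjusted p under 0.05, and without replicate 2 it called 1. Without the variance trend 2 were higher, and with the other arrays as 1 group 1 was.

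**Figure D4:**
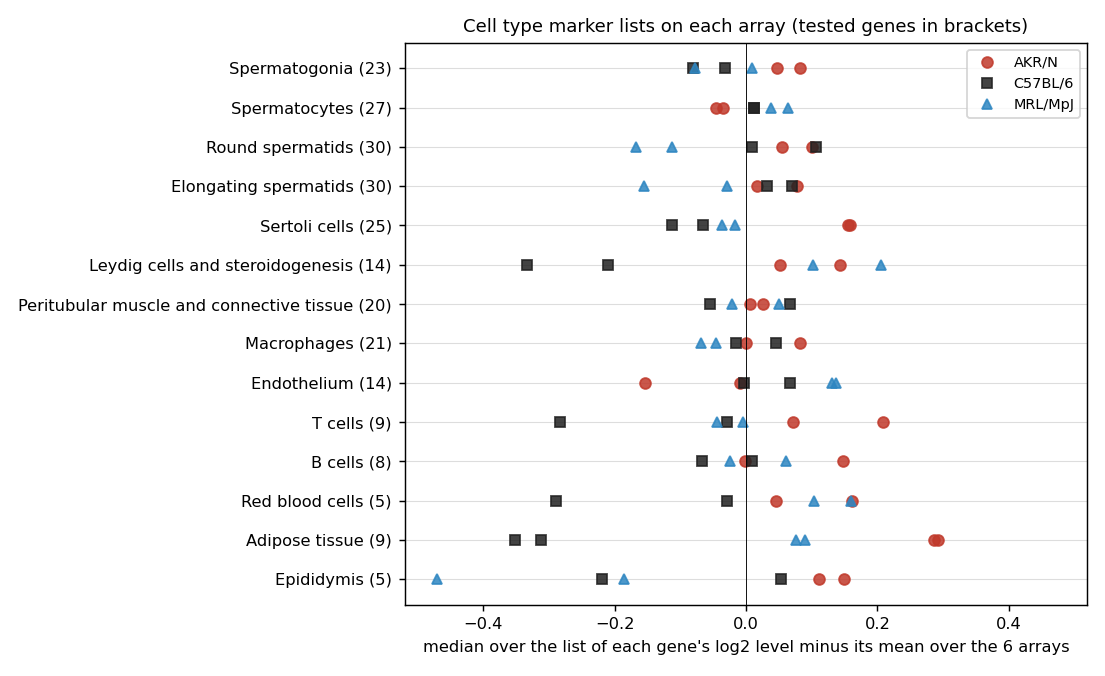
Cell type marker lists on each array: the median over the tested genes of a list (numbers in brackets) of each gene's log2 level minus its mean over the 6 arrays. Both AKR/N arrays lie above all others for the Sertoli cell (0.158 and 0.156), adipose, spermatogonial, T cell and epididymal lists and below all others for the spermatocyte (-0.0453 and -0.0351) and endothelial lists; these are medians, with no test.

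Most T cell genes were too dim to be judged. Of 25 listed, 9 had a tested probe set, and 2 of these were called higher (22.2%, against 5.68% of all genes). Cd3d was among the tested genes only through its level on the 2 AKR/N arrays, so its part in this share is no support. The other was Skap1, an adaptor protein of T cells that read 93.7 and 101 units in AKR/N and 45.4 to 60.3 on the other arrays (0.74). Skap1 was not called without AKR/N replicate 2 (adjusted p = 0.0901). Cd3e, the partner chain of Cd3d, read 19.9 and 13.3 units in AKR/N, 35.1 and 21.9 in C57BL/6 and 19.3 and 10.2 in MRL/MpJ, near the floor on every array (-0.17, adjusted p = 0.746). Cd8a, Cd5 and Il7r were as dim and not called, and the probe sets of Cd3g, Cd4, Cd2, Lat and Thy1 did not pass the filter on dim signal. Zap70, a kinase behind the T cell receptor, read 194 and 204 units in AKR/N and 141 to 176 elsewhere and was not called (adjusted p = 0.157). The summed intensity of the 9 genes was 487 and 595 units in AKR/N and 304 to 348 on the other arrays, and Cd3d accounted for most of that gap. Of the 8 B cell genes tested, the medians per array ranged from -0.00168 to 0.147 in AKR/N and from -0.0678 to 0.061 elsewhere.

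AKR/N replicate 1 read high for some genes known from other tissues. Gpx5, a peroxidase of the epididymis, read 393 units there, 16.9 on AKR/N replicate 2 and 13.7 to 42.8 on the other arrays, and Lcn5 and Adam7, also known from the epididymis, read 118 and 63.5 units there and at most 14.9 elsewhere. The adipose genes Fabp4 and Car3 read 172 and 192 units on that array and 49.6 and 64.8 on AKR/N replicate 2, and neither was called without it. Of 9 adipose genes 4 were called higher (44.4%, against 5.68% of all genes), and none of these met the stricter rule. Fewer were called without AKR/N replicate 1. The 4, Fabp4, Car3, Cd36 and Scd1, were called higher than C57BL/6, and none of them higher than MRL/MpJ. Cd36 read 255 and 251.5 units in AKR/N and 260 and 260 in MRL/MpJ. The summed intensity of the 9 genes was 1171 and 906 units in AKR/N, 555 and 483 in C57BL/6 and 891 and 835 in MRL/MpJ. The part of this signal in the other results was not tested. The named genes were chosen with AKR/N replicate 1 included, so calls they kept without it cannot decide this. Counts of the stricter rule without either AKR/N array are given above.

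Several genes against oxidative stress were higher in AKR/N. Of 45 tested, 11 were higher, against 5.68% of all genes, and 1, Gclc, was lower, with a median of 0.156 beside 0.0036. Those that met the stricter rule were Gpx3, Gsta3 and Gstm6. Gpx3, a secreted glutathione peroxidase, read 359 and 425 units in AKR/N, 153 and 108 in C57BL/6 and 59.8 and 103 in MRL/MpJ (1.80 ± 0.18, limma adjusted p = 0.000159). Gsta3, a glutathione transferase, read 213 and 213 units in AKR/N, 130.2 and 91.6 in C57BL/6 and 76.8 and 86.9 in MRL/MpJ (1.05), and its other probe set was called higher too (0.86). Gstm6, of another class of these enzymes, rose by 0.449, but was not called without AKR/N replicate 1 (adjusted p = 0.0686) or 2 (adjusted p = 0.0574). Gclc was not called without AKR/N replicate 1 or 2, C57BL/6 replicate 2 or MRL/MpJ replicate 2. Nnt, which makes NADPH in mitochondria, was called against the mean (0.54) but not in every pair, nor without AKR/N replicate 2. Members of the glutathione transferase classes are alike in sequence, so signal shared between their probe sets cannot be told apart. The count fell to 6 without AKR/N replicate 1 and 4 without replicate 2, and to 2 without the variance trend and 2 with the other arrays as 1 group.

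Of 26 genes of lipid transport 4 were called higher (15.4%) and 2 lower (7.69%), where 5.68% and 4.52% of all genes were. Their median was -0.0253. Among the lower ones was Abca1, which exports cholesterol (-0.45), with AKR/N at 448 and 443 units beside C57BL/6 at 445 and 487 and MRL/MpJ at 792 and 831. The next 3 genes, from different lists, are named together because each formed 3 levels with AKR/N on top, which was seen in their values. Aldh1a1, which makes retinoic acid from retinaldehyde, read 3534 and 4008 units in AKR/N, 1313 and 1262 in C57BL/6 and 2247 and 2343 in MRL/MpJ (1.12 ± 0.0625, limma adjusted p = 2.68e-06). Fabp5, a fatty acid carrier, read 440.4 and 397 units in AKR/N, 186 and 158 in C57BL/6 and 299 and 303 in MRL/MpJ (0.83). Cyp2c29, a cytochrome P450, read 133 and 121 units in AKR/N, 21.2 and 16.6 in C57BL/6 and 69.7 and 59.7 in MRL/MpJ (1.43). In all 3 genes the arrays of each strain kept apart from those of the next. With the other arrays as 1 group, Aldh1a1, Fabp5 and Cyp2c29 were not called (limma adjusted p = 0.101, 0.206 and 0.161). Of 32 genes of fatty acid synthesis and oxidation 7 were called higher (21.9%, against 5.68% of all genes), and of these only Fads1 met the stricter rule. The median of the list was 0.0104, beside 0.0036 over all genes. Without AKR/N replicate 1, without replicate 2 or without the variance trend 2 were called higher, and with the other arrays as 1 group limma called 0, with 5 at an unadjusted p under 0.05. Scd1, the desaturase that makes oleic acid, read 207 and 192 units in AKR/N and 187 and 174 in MRL/MpJ against 78.0 and 76.7 in C57BL/6, so that its call (0.67) came from the difference from C57BL/6.

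Single genes of other functions also met the stricter rule. Dnajb2, a co-chaperone, read 489 and 515 units in AKR/N, 908 and 955 in C57BL/6 and 871 and 939 in MRL/MpJ (-0.85 ± 0.0663, limma adjusted p = 2.91e-05). Of 37 chaperone genes 2 were called higher and 2 lower (5.41% each), near the shares of all genes (5.68% and 4.52%). Trim80 read 455 and 512 units in AKR/N against 830.1 to 976 elsewhere (-0.90). Of 46 tested genes named Trim, 5 were called lower (10.9%, against 4.52% of all genes). Of 304 named Zfp, 13 were lower (4.28%), near the share of all genes, and 6 higher (1.97%). Zfp39 read 181 and 179 units in AKR/N and 298 to 389 on the other arrays (-0.91). C8g, a chain of complement component C8, fell by 1.17, with 135 and 165 units against 344 to 368. Ndufaf1, which assembles respiratory complex I, fell by 0.61, while the complex subunit Ndufa12 rose by 0.66. None of 36 tested genes of glycolysis and energy metabolism met the stricter rule. Mdh1, Aldoa and Aldoart1 of this list were called higher than C57BL/6 but not than MRL/MpJ (limma adjusted p = 0.421, 0.0552 and 0.052). Against the mean, 6 of the 36 were higher (16.7%, against 5.68% of all genes) and 1 lower. The 2 higher of 24 interferon-induced genes (8.33%) and 2 higher of 17 genes of retrovirus restriction and entry (11.8%) stand beside the same share, and 1 of the latter list was lower. Of the interferon-induced genes, Ifi202b read 36.0 and 34.0 units in AKR/N and 1.60 to 17.5 elsewhere. It passed the filter on dim signal only through the AKR/N arrays, so its part in this share is no support. The other, Isg20 (0.38), was not called without AKR/N replicate 1 or 2, C57BL/6 replicate 2 or MRL/MpJ replicate 1. Usp44, a deubiquitinase of cell division, rose by 0.40, and Atp1a4, the sodium pump of sperm, by 0.41. Xpr1, a phosphate exporter that serves as the entry receptor of xenotropic and polytropic leukaemia viruses, read 313 and 297 units in AKR/N and 199 to 216 on the other arrays (0.54, adjusted p = 0.00326). None of its 5 other probe sets was called, 3 of the 5 had the same sign, and it was not called without AKR/N replicate 1 (adjusted p = 0.0539). Of the genes listed for known AKR alleles, H2-D1 and H2-K1, which present antigen, were called lower against the mean (-1.51 and -1.39), but H2-K1 read 57.5 and 74.4 units in AKR/N and 65.9 and 77.5 in MRL/MpJ against 498 and 507 in C57BL/6. H2-D1 had 4 further probe sets, of which 1 was called lower (-1.33) and 1 higher, at 113 and 121 units in AKR/N, 19.7 and 18.2 in C57BL/6 and 97.0 and 87.6 in MRL/MpJ (1.11, adjusted p = 0.000468), so no direction of the gene as a whole can be given. AKR and MRL mice are known to share the k haplotype of this locus, and C57BL/6 mice carry b.

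Genes of the X chromosome were looked at after their values were seen. Of 468 tested, 39 were called higher in AKR/N and 2 lower (Fmr1 and Zfp711), while on the autosomes 780 were higher and 646 lower of 13906. The median difference was 0.105 on the X chromosome and 0.000362 on the autosomes, so that the shift of most genes was small. Both AKR/N arrays lay above all others in 99 X-linked genes and below all others in 34, while of the 13906 autosomal genes 1847 lay above and 1799 below. The stricter rule was met as higher by 19 X-linked genes and 183 autosomal ones; the 19 include Piga, for which no direction can be given. Tspan6, a tetraspanin, read 2199 and 2158 units in AKR/N, 1470 and 1321 in C57BL/6 and 1542 and 1551 in MRL/MpJ. Timm17b, of the mitochondrial import channel, read 312 and 285 units in AKR/N, 183 and 158 in C57BL/6 and 215 and 215 in MRL/MpJ, and was not called without AKR/N replicate 1 (adjusted p = 0.0537). Tmsb15a, of the thymosins that bind actin, read 2593 and 2649 units in AKR/N and 1910 to 2049 on the other arrays. These 3 were named after their values were seen; none of the 39 reached a 2-fold difference. Compared with C57BL/6 alone, 51 X-linked genes were called higher and 4 lower in AKR/N, where 6.38% and 5.49% of all genes were. Compared with MRL/MpJ alone, 27 were higher and 5 lower, where 5.06% and 3.67% of all genes were. Between MRL/MpJ and C57BL/6, 27 were higher and 2 lower in MRL/MpJ, where 6.09% and 6.11% of all genes were; these comparisons share arrays. Without AKR/N replicate 1 or 2, 9 and 12 were called higher; neither Fmr1 nor Zfp711 was then called lower.

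**Figure D5:**
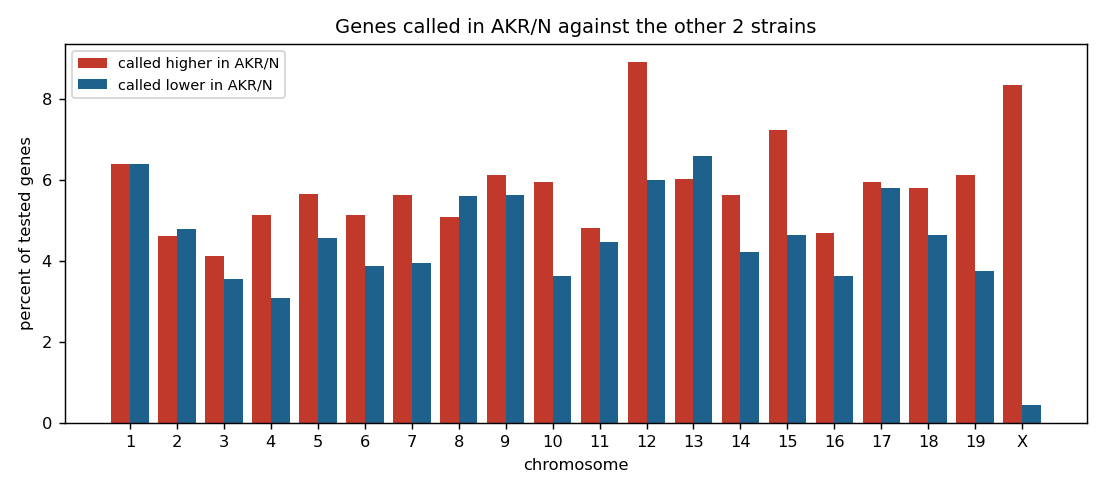
Percent of the tested genes of each chromosome called higher (red) or lower (blue) in AKR/N against the mean of the other strains. On the X chromosome 8.33% were higher and 0.427% lower; chromosome 12 had 46 higher and 31 lower of 517.

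Some called genes were neighbours in RefSeq gene order, at a share not far from that of genes at large. Of 819 genes called higher and placed, 14.2% had an adjacent gene called higher, against 11.1% of all 14381 placed genes. Of 648 called lower, 10.5% had an adjacent gene called lower, against 8.66%. There were 88 runs, of which 8 held 3 genes and the rest 2, and they are given as a description, with no test. On chromosome 15, 4930573C08Rik (1.80), Fam135b (0.52) and the collagen gene Col22a1 (0.41) were higher; Fam135b was not called without AKR/N replicate 2. On chromosome 19, Anxa1, Aldh1a1 and Aldh1a7 were higher at 0.75, 1.12 and 1.18, but Anxa1 in AKR/N (80.9 and 59.5 units) overlapped C57BL/6 (51.7 and 69.5), and Aldh1a7 was as high in C57BL/6 (182 and 178 units) as in AKR/N (176 and 188) and low in MRL/MpJ (23.3 and 22.2). The desaturases Scd3, Scd2 and Scd1 of the same chromosome differed by 0.60, 0.35 and 0.67 from the mean, but none was called higher than MRL/MpJ, and Scd2 overlapped it (1487 and 1469 units against 1416 and 1603). Serpina1c, Serpina5 and Serpina3a on chromosome 12 (0.90, 0.46 and 1.09) were called higher than C57BL/6 only. Serpina5 was lower in AKR/N, at 816 and 902 units, than in MRL/MpJ, at 1181 and 1113 (-0.41, adjusted p = 0.0116), and Serpina3a read 1132 and 1211 against 1582 and 1467. Members of the Scd, Serpina and Aldh1a families are alike in sequence, so shared signal cannot be told apart. Lower runs, of which 5 genes met the stricter rule (4930529K09Rik, C8g, Fbxw5, Haus3 and Rassf1), were 4930529K09Rik, Diaph3 and Tdrd3 on chromosome 14 (-1.47, -0.90 and -0.34), Ptgds, C8g and Fbxw5 on chromosome 2 (-0.78, -1.17 and -0.61), Haus3, Mxd4 and Zfyve28 on chromosome 5 (-0.53, -0.38 and -0.70) and Nprl2, Zmynd10 and Rassf1 on chromosome 9 (-0.43, -0.27 and -0.56). Pairs included Csl (-2.59) with Kitl (-1.42) on chromosome 10, Hoxb5os with Hoxb3 on chromosome 11 and Niban1 (-1.54) with Rnf2 (-0.365), a Polycomb protein, on chromosome 1. Neither of the other 2 probe sets of Rassf1 had its sign (0.16 and 0.02). Many of these calls need both AKR/N arrays. Without AKR/N replicate 1 and also without replicate 2, Anxa1, Scd2, Scd3, Serpina1c, Tdrd3, Ptgds, Mxd4, Zfyve28, Nprl2, Zmynd10 and Rnf2 were not called. Without AKR/N replicate 2 alone, Diaph3, Serpina5 and Haus3 were not either. Of the other arrays, leaving out C57BL/6 replicate 1 ended the call of Diaph3, and C57BL/6 replicate 2 those of Diaph3, Zfyve28 and Zmynd10. MRL/MpJ replicate 1 ended those of Diaph3, Zfyve28, Tdrd3, Serpina1c and Rnf2, and MRL/MpJ replicate 2 those of Tdrd3, Serpina1c, Anxa1, Scd3, Mxd4 and Zmynd10.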

How the data were processed

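The authors deposited 1 table of linear probe set intensity values for 6 arrays. Per the labels' protocols, Trizol was used for extraction and a one-cycle kit for biotin labelling. From the values, each array has the same mean, 125.001 units, after trimming 2% at each end; which software summarised the probes is not stated in the labels. This scaling was kept. Of 45101 probe sets, 64 controls were left out and 29692 tested, being brighter than an array's own 40th percentile on at least 2 arrays. Genes were named from the 34945 probe sets with 1 symbol in the platform annotation (932 had several, 9160 none), updated through RefSeq.

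The limma package (3.58.1, under R 4.3.3) estimated strain means of log2(intensity + 16) from all 6 arrays together, with eBayes and a variance trend (3 residual and 7.58 prior degrees of freedom), with Benjamini-Hochberg adjustment. The calculation was tested on simulated data. Named genes met the stricter rule: the 15 largest per direction whose other probe sets had the same sign, the 8 largest with another probe set called alike, those with one called opposite, genes near the floor on 1 side, and, whether or not they met it, up to 4 called members of a gene list, 2 of a symbol family, genes with known AKR alleles and runs of neighbours. Members and lists were chosen with earlier results of these data known, so they are no independent support; genes given beyond this rule, such as Hoxb3, Ift74, Ctsl, Nek2, Gstm6, Gclc, Inhba, Rnf2, and the uncalled Sertoli cell, T cell and epididymal genes, were named after their values were seen. Alternatives were other normalizations, filters, pseudocounts, no trend, the other arrays as 1 group, a fold minimum, means of probe sets, a replicate block and leaving out each array.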

Additional observations from a re-analysis of the deposited data

How the results depend on the processing

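Quantile normalization, median centring, a stricter filter and pseudocounts of 1 and 64 kept the counts below within 1.5 times of those reported, and median centring left 44.4% of calls lower in place of 49%. The 2484 probe sets called in AKR/N became 1644 without a filter, 649 without the variance trend, 259 with the 4 other arrays as 1 group (61.4% of them lower) and 337 at 2-fold or more (58.5% lower), and 769 to 2594 when 1 array was left out. The 2960 against C57BL/6 became 1138 without the trend, 714 at 2-fold or more, and 1290 to 2607 without 1 array. The 2052 against MRL/MpJ became 1327 without a filter, 421 without the trend, 394 at 2-fold or more, and 694 to 2191 without 1 array. The 7188 separated probe sets became 284 at 2-fold or more and 8998 to 13007 without 1 array, as fewer arrays have to be separated. Genes of the stricter rule numbered 39 higher and 61 lower without the trend, 25 and 48 at 2-fold or more in each comparison, and 65 to 225 and 97 to 194 without 1 array. X-linked genes called higher numbered 3 without the trend, 4 with the other arrays as 1 group, 0 at 2-fold or more and 9 to 35 without 1 array. Where an array was left out, its strain's other array was assumed to vary like the rest; the cause of the other changes was not tested. The comparisons with 1 strain could not be made with the other arrays as 1 group. Averaging a gene's probe sets, which was run only for genes, reversed Piga (-0.44), Rgl1 (0.50), Pds5a (0.11), Cfap43 (0.14) and Ddias (0.13). Of 84 named genes of the stricter rule, 84 were called after quantile normalization, 62 without the trend, 50 with the other arrays as 1 group, 76 without AKR/N replicate 1 and 72 without replicate 2. Same-numbered arrays of different strains shared little, with correlations of deviations of 0.0425 to 0.0493, so the replicate number was not taken to pair mice; with it as a replicate block, 2963, 3492 and 2549 probe sets were called against both strains, C57BL/6 and MRL/MpJ, 284 genes were higher and 277 lower under the stricter rule, and 41 X-linked genes were higher. With 2 mice a strain and no detection calls, a dim gene could be judged only by its low intensity.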
